A study of Homo sapiens with 8 samples.

Results

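The clustered protocadherin genes were examined on 8 arrays of HCT116 cells, a human colorectal cancer cell line. Members were the array probes, control spots excluded, whose gene name began with *PCDHA*, *PCDHB* or *PCDHG* and whose position lay on chromosome 5. They comprised 58 of the 50599 distinct probes, under 50 gene names, printed as 67 spots. The alpha cluster had 16 probes of 15 genes, the beta cluster 19 probes of 18 genes and the gamma cluster 23 probes of 17 genes. The names of 4 of the genes, *PCDHB17*, *PCDHB18*, *PCDHB19P* and *PCDHGB8P*, belong to pseudogenes.

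The study asked how depletion of *TET1*, which encodes an enzyme that oxidizes 5-methylcytosine, alters the response to 5-aza-2'-deoxycytidine (5-aza-dC), an inhibitor of DNA methyltransferases. CONT1 and CONT2 were established from cells given a plasmid with a negative control miRNA, and TET1-KD1 and TET1-KD2 from cells given vectors with different artificial miRNAs against *TET1*. All 4 clones, the controls included, carry a transfected vector and went through G418 selection. Each was profiled without drug and following a 72 h exposure to 1 µM 5-aza-dC, with drug and medium renewed daily, so every condition had n = 2. The clones of a kind served as replicates, and each is a separately selected line. A treatment field in the labels followed the kind of clone, not the titles, and the titles were used.

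Clustered protocadherins are cadherin-related adhesion proteins of the cell surface, best known from neurons, where different combinations of isoforms give cells distinct surface identities. In the alpha and gamma clusters, each variable first exon has its own promoter and is spliced to constant exons shared by the whole cluster, whereas genes of the beta cluster consist of an exon of their own. Promoter choice involves DNA methylation, CTCF and cohesin, and hypermethylation of these clusters has been described in several cancers. At the downstream ends of the alpha and gamma clusters lie the C-type genes, and *PCDHB1* lies apart at the start of the beta cluster.

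Total signal was similar across most arrays. The 75th percentile of intensity was 546 to 624 on the 6 arrays of slide 1 and 396 and 476 on slide 2, which held both treated control arrays and no others. Thus slide and condition cannot be told apart for the response of the control clones, or for its difference from the knockdown clones. The knockdown response and the untreated comparison lay within slide 1. The 7 spike-in RNAs read 0.05 to 1.01 log2 lower on slide 2 than on slide 1, before scaling. The gap was smallest for the brightest (18.07 log2 on slide 1) and largest for the dimmest of them (7.91 log2). Scaling each array by its 75th percentile does not remove such a dependence on intensity. All 3 *TET1* probes were lower in both untreated knockdown clones than in either control. On its brightest probe (chr10:70332072-70332131) the log2 signal was 9.70 and 9.75 in CONT1 and CONT2, against 8.65 and 9.41 in TET1-KD1 and TET1-KD2. No *TET1* probe passed the test between the untreated kinds of clone (limma adjusted p = 0.37 to 0.61). Of 7 epithelial marker genes, 6, including *EPCAM*, *CDH1* and *CDX2*, were well above background on all 8 arrays.

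Promoter sequences are shown for 5 members that behaved differently on the arrays. *PCDHB2* was well above background only after 5-aza-dC, in all 4 clones, and *PCDHB16* only after 5-aza-dC in the control clones. *PCDHGA3* came up in both knockdown clones and CONT1, and *PCDHA7* and *PCDHB13* were above background on all 8 arrays. The sequences are from RefSeq on GRCh38.p14, + strand, from 250 bases before to 50 after each gene's start, and capitals mark CG dinucleotides, where DNA methylation occurs. Of the 50 gene names, 40 had an entry.
PCDHA7, chr5:140834019-140834318: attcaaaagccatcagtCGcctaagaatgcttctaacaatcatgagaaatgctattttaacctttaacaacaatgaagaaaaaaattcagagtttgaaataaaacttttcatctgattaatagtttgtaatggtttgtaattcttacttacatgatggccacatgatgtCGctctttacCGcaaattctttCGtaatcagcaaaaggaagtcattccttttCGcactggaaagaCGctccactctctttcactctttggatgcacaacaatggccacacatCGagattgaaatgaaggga
PCDHB2, chr5:141094365-141094664: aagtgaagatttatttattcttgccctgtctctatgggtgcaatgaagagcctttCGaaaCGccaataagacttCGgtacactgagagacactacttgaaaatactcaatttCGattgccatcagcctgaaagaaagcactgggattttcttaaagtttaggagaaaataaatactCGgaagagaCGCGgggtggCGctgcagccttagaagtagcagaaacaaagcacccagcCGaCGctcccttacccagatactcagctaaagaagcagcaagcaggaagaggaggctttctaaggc
PCDHB16, chr5:141182137-141182436: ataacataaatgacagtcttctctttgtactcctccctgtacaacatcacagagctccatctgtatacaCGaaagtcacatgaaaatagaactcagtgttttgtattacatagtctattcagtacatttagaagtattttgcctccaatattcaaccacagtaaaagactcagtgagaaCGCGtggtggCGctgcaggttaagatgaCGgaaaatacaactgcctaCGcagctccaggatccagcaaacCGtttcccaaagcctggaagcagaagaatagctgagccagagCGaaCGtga
PCDHB13, chr5:141213669-141213968: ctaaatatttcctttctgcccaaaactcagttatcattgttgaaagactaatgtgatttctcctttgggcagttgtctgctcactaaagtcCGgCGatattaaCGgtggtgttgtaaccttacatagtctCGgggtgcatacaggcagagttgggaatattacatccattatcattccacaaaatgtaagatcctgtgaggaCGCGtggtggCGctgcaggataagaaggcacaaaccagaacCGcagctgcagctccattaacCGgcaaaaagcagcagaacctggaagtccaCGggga
PCDHGA3, chr5:141343579-141343878: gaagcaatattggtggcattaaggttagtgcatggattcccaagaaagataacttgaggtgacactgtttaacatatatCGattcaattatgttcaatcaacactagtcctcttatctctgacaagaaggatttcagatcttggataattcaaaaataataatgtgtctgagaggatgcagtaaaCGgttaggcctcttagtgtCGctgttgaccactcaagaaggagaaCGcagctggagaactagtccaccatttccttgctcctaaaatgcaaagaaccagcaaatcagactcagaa

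These windows contained 7 CG dinucleotides in *PCDHA7*, 10 in *PCDHB2*, 9 in *PCDHB16*, 10 in *PCDHB13* and 4 in *PCDHGA3*. The median over the 40 member promoters was 7 (range 3 to 27), against 13 over all 27305 promoters of the table. The highest counts were 27 in *PCDHAC1*, 23 in *PCDHGC4* and 18 in *PCDHGC3*, which are C-type genes, followed by 16 in *PCDHGB6* and 15 in the C-type gene *PCDHAC2*. Both the 20 promoters of genes never above background and the whole set of 40 had a median of 7. The letters CGCT, searched on both strands, were found in 39 of the 40 member promoters (97.5%) and in 68.8% of all promoters. The longest stretch common to the 3 beta promoters shown, GGTGGCGCTGCAG, contains CGCT. It was present in 10 of 13 beta promoters, in 0 of 13 alpha and 0 of 14 gamma promoters, and in 0.0549% of all promoters, again on both strands. The 3 promoters it was taken from are among the 10, so their hits were fixed in advance. Of all 27305 promoters 15 had it, the 10 beta promoters included. Of the 10 beta genes with the stretch, *PCDHB13* was on in all untreated clones and *PCDHB9* in CONT1 alone. *PCDHB2*, *PCDHB5*, *PCDHB15* and *PCDHB16* were above background only after 5-aza-dC, in some or all clones. *PCDHB4*, *PCDHB8*, *PCDHB10* and *PCDHB12* were above background on no array. Methylation of these promoters was not measured on these arrays.

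Most clustered protocadherin probes were not well above background in HCT116 cells, which bounds their signal but does not show silence. Of the 58 probes, 31 were well above background on no array and 6 on all 8. In untreated cells, 12 probes were above background in CONT1 and 8 in CONT2, against 10 in TET1-KD1 and 6 in TET1-KD2. After 5-aza-dC, the numbers were 20, 13, 17 and 21, so more members were detected in each of the 4 clones. As a share of the 58 probes this was 10.3% to 20.7% untreated and 22.4% to 36.2% treated. Among all probes of the array, the detected share was 46.7% to 49.8% untreated and 48.7% to 54.9% treated. No test was made of this count.

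**Figure D1:**
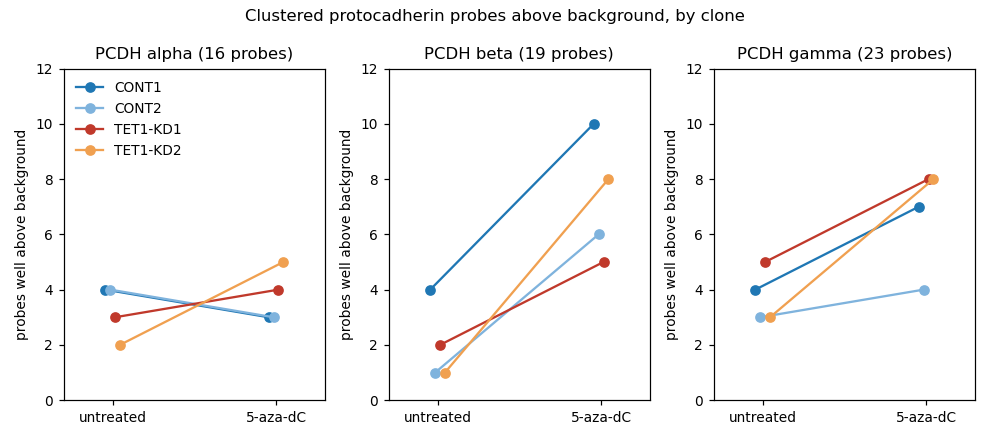
Number of probes well above background (vertical axis) before and after 5-aza-dC in the alpha (16 probes), beta (19) and gamma (23) clusters. Each line is 1 of the 4 clones. The beta lines rise in every clone, from 4, 1, 2 and 1 to 10, 6, 5 and 8, whereas the alpha lines of the control clones fall from 4 to 3.

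The gain differed in size among the clusters. In the beta cluster, CONT1 went from 4 detected probes to 10, CONT2 from 1 to 6, TET1-KD1 from 2 to 5 and TET1-KD2 from 1 to 8. The gamma counts went from 4 to 7, 3 to 4, 5 to 8 and 3 to 8 in the same order. The alpha count fell from 4 to 3 in both control clones, whereas TET1-KD1 went from 3 to 4 and TET1-KD2 from 2 to 5. Counting only probes off in both clones of a kind before treatment and on in both after, 5 were gained in the knockdown clones and 4 in the control clones. Of the probes on in both clones before treatment, 0 were lost in the knockdown clones and 2 (*PCDHA5* and *PCDHAC2*) in the control clones. Gains and losses of this kind were not counted over all probes, so they cannot be set against the array as a whole.

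**Figure D2:**
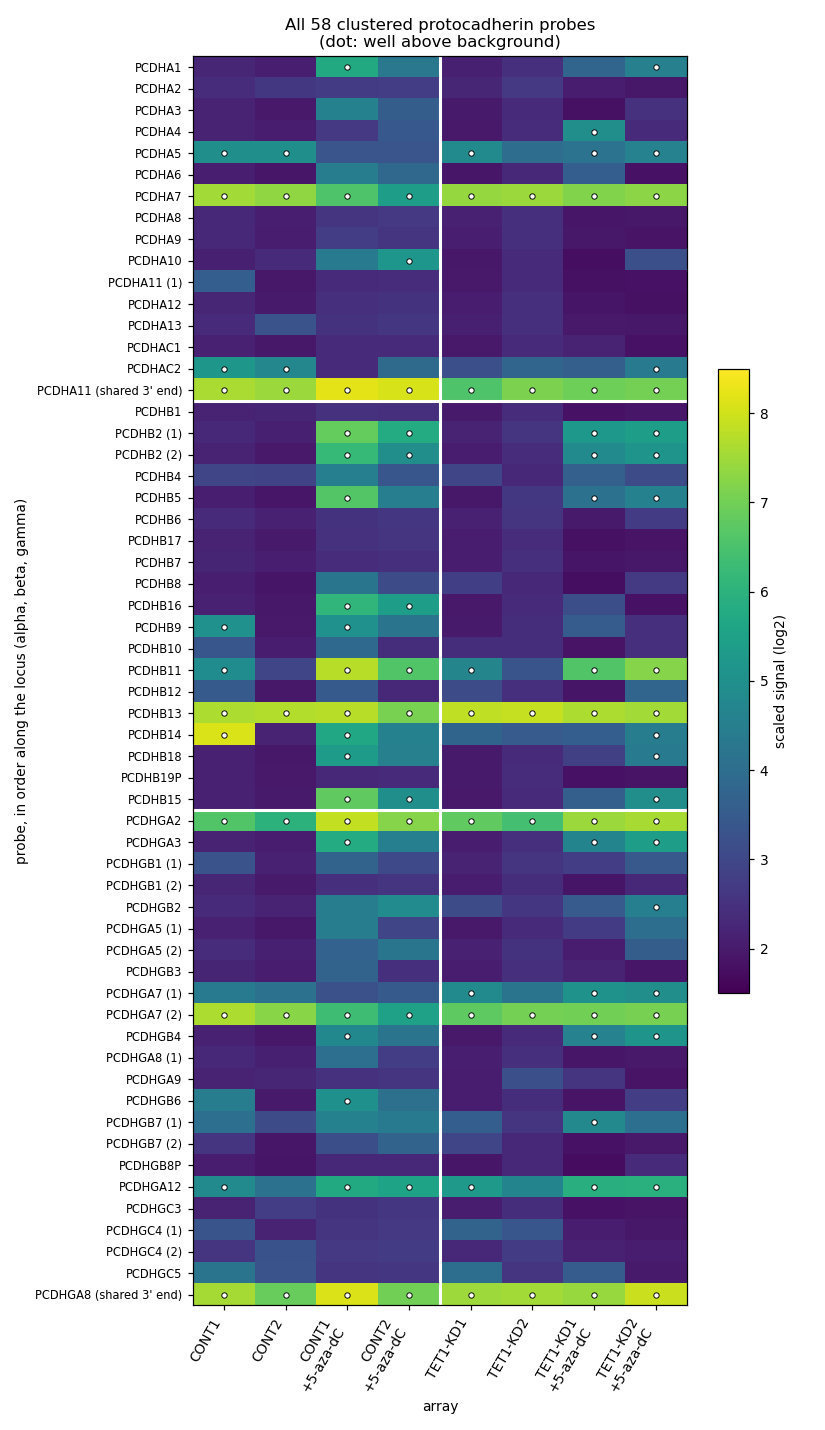
Scaled log2 signal (colour) of all 58 probes in their order along the locus (rows) on each of the 8 arrays (columns). A dot marks a probe well above background, and colours are to be compared along a row. *PCDHB2* has dots on all 4 treated arrays and on no untreated array, whereas *PCDHB13* has dots on all 8.

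To be tested, a probe had to be well above background in both clones of some condition, which left 18 of the 58 (16 genes), 4 alpha, 7 beta and 7 gamma. Of these, 10 met the criterion through treated arrays only, 1 (*PCDHAC2*) through untreated arrays only and 7 through both. A member admitted only by the group in which it is high had to differ, so the counts among the 18 are descriptions. In the knockdown clones, 4 of the 18 rose after 5-aza-dC and 0 fell at a limma adjusted p below 0.05 (unadjusted, 9 rose and 0 fell). Of all 27286 tested probes, 8.9% rose and 2.89% fell (unadjusted, 4123 rose and 3479 fell). The 4 probes belonged to *PCDHB2* (2 probes), *PCDHGA3* and *PCDHGB4*. In the control clones, 10 rose and 5 fell, against 19.2% and 22.6% of all tested probes. When all 58 members were tested without a filter, 4 rose and 0 fell in the knockdown clones, against 3.93% and 0.54% of all probes. In the control clones 16 rose and 3 fell without the filter, against 10.3% and 10.2%.

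**Figure D3:**
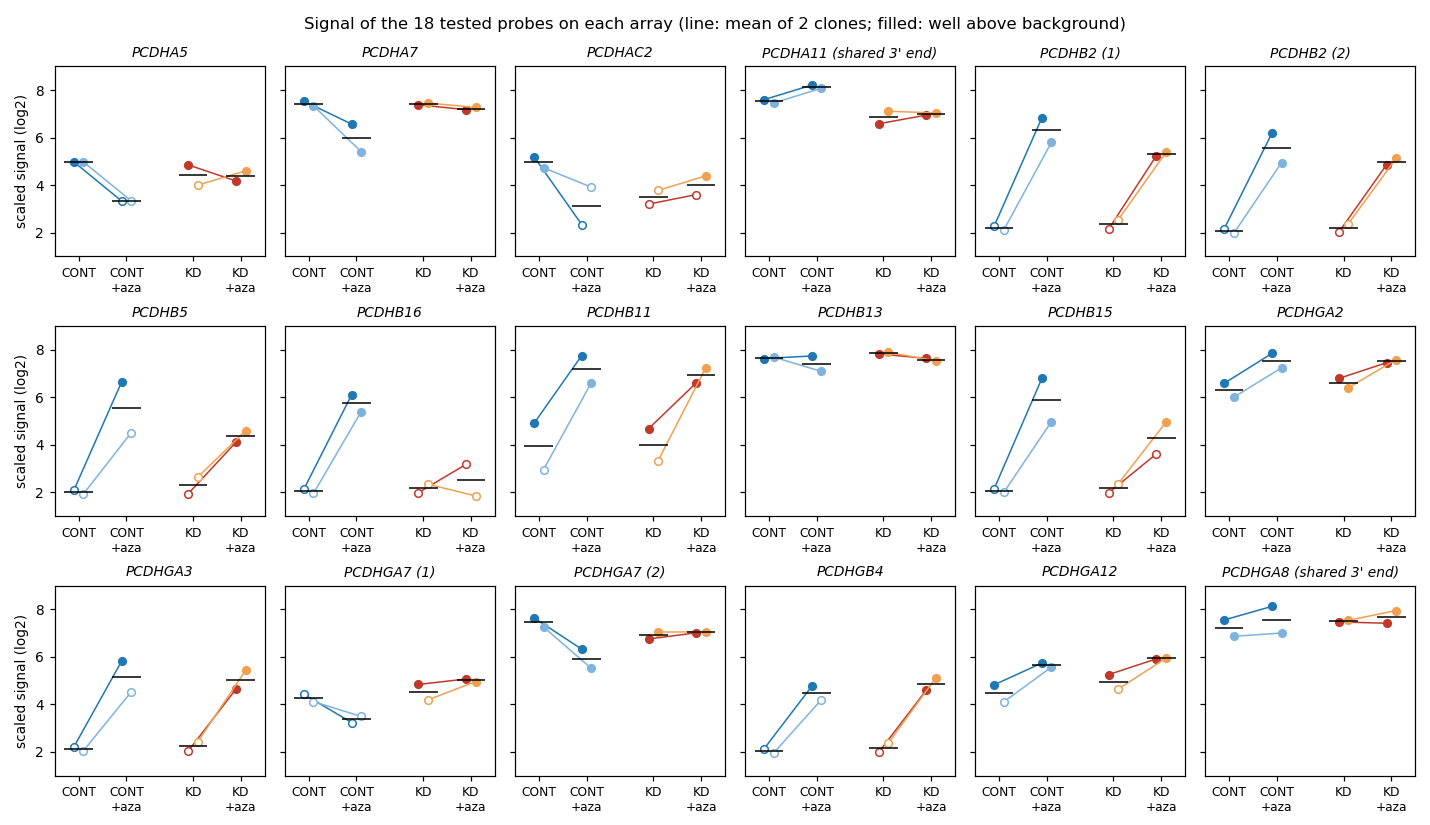
Scaled log2 signal (vertical axis) of the 18 tested probes in control (CONT) and *TET1* knockdown (KD) clones, untreated and after 5-aza-dC (+aza). Each circle is 1 array, lines join the arrays of a clone, bars are means of 2 clones, and filled circles are well above background. Both *PCDHB2* probes rise in all 4 clones, while *PCDHB16* is well above background in the treated control clones alone and *PCDHA7* stays between 7.18 and 7.46 in the knockdown clones.

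In the beta cluster, 2 of the 7 tested probes rose in the knockdown clones and 6 in the control clones. Of these 7 probes, 6 had been admitted to the test by treated arrays only. *PCDHB2* was covered by a probe at chr5:140476664-140476723 (hg19, as are all probe positions below), which is also listed for *PCDHB3*. Its untreated log2 signal in CONT1, CONT2, TET1-KD1 and TET1-KD2 was 2.28, 2.11, 2.16 and 2.55, and its treated signal was 6.84, 5.81, 5.24 and 5.39. All 4 treated arrays were above all 4 untreated arrays, on which it was not well above background. Where a group is not well above background, the fold is a lower bound set by the dimmest signal that was. The rise was at least 1.88-fold in the knockdown clones (limma adjusted p = 0.00307) and at least 4.02-fold in the control clones (limma adjusted p = 0.000443). A neighbouring *PCDHB2* probe at chr5:140476755-140476814 read 2.17, 1.99, 2.02 and 2.38 untreated and 6.20, 4.95, 4.86 and 5.12 treated. Of all tested probes, 24.2% read wholly higher and 30.8% wholly lower on the treated arrays in the knockdown clones. In the control clones these shares were 36.2% and 42.8%. Both *PCDHB2* probes thus had non-overlapping groups, a common pattern with 2 arrays a group. For the latter probe the rise was at least 1.51-fold in the knockdown clones (limma adjusted p = 0.00747, or 0.0528 without treated TET1-KD2) and at least 2.39-fold in the control clones (limma adjusted p = 0.00135).

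*PCDHB11* (chr5:140581576-140581635) was already above background in CONT1 and TET1-KD1 before treatment, but not in the other clone of either kind. The log2 signals of CONT1, CONT2, TET1-KD1 and TET1-KD2 were 4.90, 2.96, 4.68 and 3.33 before and 7.76, 6.61, 6.61 and 7.24 after 5-aza-dC. The treated arrays lay above the untreated ones in both kinds of clone. The probe was admitted by treated arrays only, so its differences are fitted values, not measured sizes, and its p-values are descriptions. The fitted difference was 2.92 log2 (SE 0.78, limma adjusted p = 0.063) in the knockdown clones and 3.25 log2 (SE 0.78, limma adjusted p = 0.0181) in the control clones. The former passed the threshold without untreated CONT1 or CONT2 (limma adjusted p = 0.0444 each) and with the clone as a block (0.0422). The control call was lost without treated CONT1 (limma adjusted p = 0.0895) or untreated CONT2 (0.0768).

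*PCDHB5* (chr5:140517455-140517514) read 2.09 and 1.93 in untreated CONT1 and CONT2 and 6.64 and 4.50 after treatment, the latter not well above background. In TET1-KD1 and TET1-KD2 it went from 1.95 and 2.65 to 4.11 and 4.59. Each treated array was thus above each untreated array. The control clones passed the test (limma adjusted p = 0.00763), but no fold is given, since treated CONT2 was not well above background. The probe was admitted by the treated knockdown arrays alone, on which it read high, so its p-values are descriptions. In the knockdown clones the limma adjusted p was 0.105. The latter was 0.0172 without treated CONT1 or without treated CONT2.

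*PCDHB15* (chr5:140627430-140627489) read 2.15 and 2.00 in CONT1 and CONT2 without drug, and 6.80 and 4.98 with 5-aza-dC. TET1-KD1 went from 1.98 to 3.62, TET1-KD2 went from 2.36 to 4.95, and only the latter was well above background. The control rise was at least 2.97-fold (limma adjusted p = 0.0059), and the knockdown difference did not pass (limma adjusted p = 0.0975). This probe was admitted by the treated control arrays alone, on which it read high, so these p-values are descriptions. *PCDHB13* (chr5:140595978-140596037) was above background throughout, at 7.63 and 7.69 in untreated and 7.74 and 7.09 in treated control clones. In the knockdown clones it read 7.83 and 7.89 untreated and 7.63 and 7.54 treated. Its differences were -0.27 log2 (SE 0.23) in the knockdown and -0.25 log2 (SE 0.23) in the control clones, and neither passed (limma adjusted p = 0.493 and 0.416).

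*PCDHB16* (chr5:140565335-140565394) differed between the kinds of clone. It read 2.14 and 1.96 in untreated CONT1 and CONT2 and 6.11 and 5.40 after 5-aza-dC. TET1-KD1 went from 1.99 to 3.18, whereas TET1-KD2 went from 2.34 to 1.85. The treated control arrays were the only ones well above background. The control rise was at least 2.71-fold (limma adjusted p = 0.00183). The difference in response passed the test (limma adjusted p = 0.0413), but its size was not measured, since 6 of the 8 arrays were not well above background and the probe was admitted by the treated control arrays alone. Since slide 2 held only the treated control arrays, slide and condition cannot be told apart here. With 0.0636 under the clone block and 0.0566 to 0.14 without any of 7 of the 8 arrays, its adjusted p in limma did not pass, and it passed without treated TET1-KD1.

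**Figure D4:**
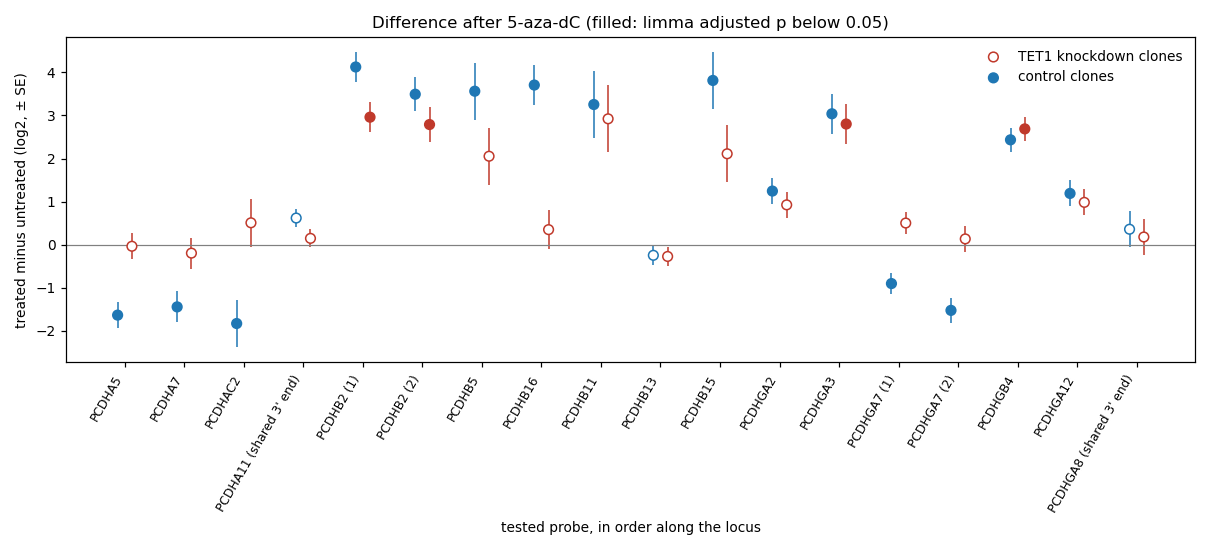
Treated minus untreated log2 signal (vertical axis, ± SE from limma, n = 2 clones) of the 18 tested probes in locus order, for control clones (blue) and *TET1* knockdown clones (red). Filled points have an adjusted p below 0.05, and differences against arrays not well above background are fitted values, not measured sizes. Points for *PCDHA5*, *PCDHA7*, *PCDHAC2*, *PCDHB13* and both *PCDHGA7* probes lie below 0 in the control clones. Those for *PCDHB2*, *PCDHB5*, *PCDHB11*, *PCDHB15*, *PCDHGA3* and *PCDHGB4* lie above 2 in both kinds, whether filled or not.

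In the gamma cluster, the genes that came up were of both the A and B subfamilies. Of the 7 tested probes, 4 had been admitted to the test by treated arrays only, among them *PCDHGB4* and *PCDHGA3*. Both of these were admitted by the treated knockdown arrays alone, on which they read high, so their p-values are descriptions. The *PCDHGB4* probe (chr5:140769762-140769821), also listed for *PCDHGB5*, read 2.14 and 1.96 in untreated and 4.76 and 4.20 in treated control clones. In TET1-KD1 and TET1-KD2 it went from 1.98 and 2.37 to 4.60 and 5.12. The treated arrays were above the untreated ones in both kinds, and it was well above background on all treated arrays but that of CONT2. The rise was at least 1.38-fold in the knockdown clones (limma adjusted p = 0.00189). The control clones passed the test too (limma adjusted p = 0.00136), but no fold is given for them, since 1 of the 2 treated arrays was not well above background.

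The *PCDHGA3* probe (chr5:140725938-140725997), listed for *PCDHGA4* and *PCDHGA6* as well, gave 2.21, 2.05, 2.04 and 2.43 in untreated CONT1, CONT2, TET1-KD1 and TET1-KD2. After treatment it gave 5.81, 4.52, 4.65 and 5.43. Again the groups did not overlap, and CONT2 was the treated array not well above background. It rose at least 1.56-fold in the knockdown clones (limma adjusted p = 0.0131). The control clones passed too (limma adjusted p = 0.0037), but no fold is given, since treated CONT2 was not well above background. The knockdown call was lost without untreated TET1-KD1 (limma adjusted p = 0.0658), untreated TET1-KD2 (0.0502) or treated TET1-KD2 (0.077).

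*PCDHGA2* and *PCDHGA12* read higher after 5-aza-dC in all 4 clones. *PCDHGA2* was well above background on all 8 arrays. *PCDHGA12* was so before treatment only in CONT1 and TET1-KD1 and was admitted by treated arrays only. Its differences are therefore fitted values, not measured sizes. The *PCDHGA2* probe (chr5:140720840-140720899), also listed for *PCDHGA1*, *PCDHGA3* and *PCDHGA11*, went from 6.59, 6.01, 6.79 and 6.40 to 7.85, 7.24, 7.45 and 7.59 in CONT1, CONT2, TET1-KD1 and TET1-KD2. The difference was 1.24 log2 (SE 0.30, limma adjusted p = 0.018) in the control and 0.92 log2 (SE 0.30, limma adjusted p = 0.103) in the knockdown clones. For *PCDHGA12* (chr5:140812359-140812418, also listed for *PCDHGA10*), the values were 4.83, 4.11, 5.26 and 4.65 before and 5.74, 5.57, 5.92 and 5.95 after. It differed by 1.19 log2 (SE 0.30, limma adjusted p = 0.0223) in the control and 0.98 log2 (SE 0.30, limma adjusted p = 0.0926) in the knockdown clones. The control call of *PCDHGA2* was lost without treated CONT1 (limma adjusted p = 0.0826) or untreated CONT2 (0.0983). That of *PCDHGA12* was lost without treated CONT1 (0.094), untreated CONT2 (0.109) or treated CONT2 (0.0671).

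*PCDHGA7* moved the other way in the control clones. Its probe at chr5:140764880-140764939, above background on all 8 arrays, read 7.64 and 7.26 in untreated and 6.33 and 5.52 in treated control clones. In TET1-KD1 and TET1-KD2 it went from 6.75 and 7.05 to 7.01 and 7.05. The signal fell by 1.53 log2 (SE 0.30, limma adjusted p = 0.00888) in the control clones, while the knockdown difference was 0.13 log2 (SE 0.30, limma adjusted p = 0.818). The difference in response, 1.66 log2 (SE 0.42), missed the threshold (limma adjusted p = 0.0767) and passed it under the clone block (0.0467) and without treated CONT1 (0.0366). Without untreated CONT1 the control call was lost (limma adjusted p = 0.0566). Another *PCDHGA7* probe (chr5:140764098-140764157, also listed for *PCDHGA8*) read 4.42 and 4.12 untreated and 3.24 and 3.49 treated in the control clones, where it was not well above background on any array. It was called lower there (limma adjusted p = 0.031), and no fold is given. That call was lost without any of the 4 control arrays (limma adjusted p = 0.0681 to 0.153).

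In the alpha cluster, 0 of the 4 tested probes passed in the knockdown clones (limma, and 0 also at an unadjusted p below 0.05), and 3 fell in the control clones. *PCDHA7* (chr5:140216279-140216338) was above background on all 8 arrays. Its signal in CONT1 and CONT2 was 7.54 and 7.34 before and 6.57 and 5.41 after treatment, and in TET1-KD1 and TET1-KD2 it was 7.39 and 7.46 before and 7.18 and 7.27 after. It fell by 1.45 log2 (SE 0.36, limma adjusted p = 0.0208) in the control clones, and differed by -0.20 log2 (SE 0.36, limma adjusted p = 0.773) in the knockdown clones. The control call was lost without untreated CONT1 (limma adjusted p = 0.0973), without untreated CONT2 (0.0713) and with the 4 control arrays alone (0.0593). The difference in response was 1.25 log2 (SE 0.51, limma adjusted p = 0.197, or 0.0294 without treated CONT1).

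*PCDHA5* (chr5:140203700-140203759) read 4.98 in both untreated control clones and 3.34 and 3.35 in the treated ones, where it was no longer well above background. In TET1-KD1 it went from 4.85 to 4.18, but TET1-KD2 went from 4.004 to 4.60. It was at least 1.40-fold lower in treated than untreated control clones (limma adjusted p = 0.00709), and in the knockdown clones the difference was -0.04 log2 (SE 0.30, limma adjusted p = 0.954). With another background correction (normexp), which also lifts dim signals, the control difference was -0.05 log2 (limma adjusted p = 0.817).

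*PCDHAC2* (chr5:140348874-140348933) was the C-type gene that was detected. Its probe was admitted by the untreated control arrays alone, on which it read high, so its p-values are descriptions. In CONT1 and CONT2 it read 5.20 and 4.73 untreated and 2.34 and 3.92 treated, and it was at least 1.38-fold lower after treatment (limma adjusted p = 0.0397). In TET1-KD1 and TET1-KD2 it read 3.20 and 3.78 untreated and 3.61 and 4.39 treated, well above background on the last array only (limma adjusted p = 0.609). Both untreated knockdown clones were below both untreated control clones, without passing the test (limma adjusted p = 0.583). The control fall was lost without untreated CONT1 (limma adjusted p = 0.163), treated CONT1 (0.137), untreated CONT2 (0.0948), TET1-KD1 or TET1-KD2 (0.0538 each), and with normexp (0.553).

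The other C-type genes and *PCDHB1* were well above background on no array. Their log2 signals ranged from 1.85 to 2.37 for *PCDHAC1*, 1.85 to 2.49 for *PCDHB1*, 1.84 to 2.76 for *PCDHGC3*, 1.96 to 3.74 for the *PCDHGC4* probes and 2.00 to 4.18 for *PCDHGC5*. Hence no order of these values is given.

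Another 2 probes, 1 alpha and 1 gamma, lie beyond the last C-type probe of their cluster and are listed for several of its transcripts. Their place in exons was not determined. The alpha probe, named *PCDHA11* (chr5:140390896-140390955), read 7.60 and 7.46 untreated and 8.21 and 8.08 treated in the control clones, and 6.59 and 7.11 untreated and 6.95 and 7.04 treated in the knockdown clones. Thus it was higher in the treated control arrays than in any other. The differences were 0.62 log2 (SE 0.21, limma adjusted p = 0.0545) in the control and 0.15 log2 (SE 0.21, limma adjusted p = 0.704) in the knockdown clones. The control difference passed in some alternatives but not in all. Its limma adjusted p was 0.0374 with the clone as a block, 0.0236 with normexp and 0.0294 with the 4 control arrays alone. Among probes above background on all 8 arrays it was 0.0449. Slide and condition cannot be told apart for it. This probe ran opposite in sign to the 3 alpha probes that fell in the control clones. The gamma probe, named *PCDHGA8* (chr5:140892394-140892453), read 7.55 and 6.86 untreated and 8.13 and 7.004 treated in the control clones, and 7.47 and 7.54 untreated and 7.42 and 7.95 treated in the knockdown clones. Its groups overlapped in both kinds, with differences of 0.36 log2 and 0.18 log2 (SE 0.42 each, limma adjusted p = 0.528 and 0.83).

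Another 9 probes were above background on some arrays without meeting the criterion for testing. *PCDHA1* was above background in treated CONT1 (5.74) and treated TET1-KD2 (4.54), and *PCDHB18* in the same arrays (5.35 and 4.40). *PCDHA4* and *PCDHGB7* were so in treated TET1-KD1 alone (4.97 and 4.81), *PCDHA10* in treated CONT2 alone (5.17), *PCDHGB2* in treated TET1-KD2 alone (4.52) and *PCDHGB6* in treated CONT1 alone (5.02). These 7 probes were thus detected only after 5-aza-dC, each in 1 or 2 of the 4 clones. *PCDHB9* was detected in CONT1 before and after treatment (5.05 each). *PCDHB14* read 8.10 in untreated CONT1 and 5.68 in treated CONT1, was also detected in treated TET1-KD2 (4.47), and read 2.18 in untreated CONT2.

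Between untreated knockdown and control clones, 0 of the 18 tested probes differed in either direction by limma, and at an unadjusted p below 0.05, 0 were higher and 2 lower (*PCDHAC2* and the alpha probe beyond the C-type genes). Of all 27286 tested probes, 0.00733% were higher and 0.00733% lower, and at an unadjusted p below 0.05, 898 were higher and 1355 lower. For the difference in response, 0 were higher and 1 (*PCDHB16*) lower in the knockdown clones, against 4.02% and 1.56% of all probes. At an unadjusted p below 0.05 there were 5 higher and 1 lower, against 4030 and 2713 of all 27286 tested probes.

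Genes related to the clusters by function or position moved in both directions. The counts below stand against 8.9% up and 2.89% down among all tested probes in the knockdown clones, and 19.2% and 22.6% in the control clones. Among non-clustered protocadherins and related cadherins, 1 of 13 tested probes rose in the knockdown clones and 4 in the control clones, and 0 fell in either. The knockdown riser was *PCDH7*, which encodes a non-clustered protocadherin. Its log2 signal went from 5.47, 5.59, 5.75 and 5.13 to 10.25, 10.37, 8.78 and 9.66 in CONT1, CONT2, TET1-KD1 and TET1-KD2, a rise of 3.79 log2 (SE 0.34, limma adjusted p = 0.000981) in the knockdown clones. Among regulators of the clusters, 1 of 48 probes rose and 5 fell in the knockdown clones, and 4 rose and 10 fell in the control clones. A probe of *DNMT3A*, a DNA methyltransferase, rose by 1.92 log2 (limma adjusted p = 0.0124), while its other 2 probes did not pass. *CTCF*, which binds protocadherin promoters, fell by 0.59 log2 (limma adjusted p = 0.0482), *PDS5B*, a cohesin cofactor, by 1.08 log2 (0.0183), *UHRF1*, which recruits DNMT1, by 0.74 log2 (0.0488), *EHMT1* by 0.62 log2 (0.0419) and *TRIM28* by 0.61 log2 (0.0471). The other 2 probes of *EHMT1* (0.46 and -0.12 log2, limma adjusted p = 0.262 and 0.709) and the other *UHRF1* probe (-0.65 log2, 0.0693) did not pass.

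Among genes next to or between the clusters, 3 of 32 probes rose and 2 fell in the knockdown clones. Both *DND1* probes rose, by 1.61 and 1.92 log2 (limma adjusted p = 0.00116 and 0.00368), and *CD14*, a lipopolysaccharide co-receptor, by 1.60 log2 (0.00951). *GNPDA1* fell by 1.05 log2 (limma adjusted p = 0.0283) and *HARS2*, the mitochondrial histidyl-tRNA synthetase, by 0.67 log2 (0.0346). In the control clones, 5 neighbour probes rose and 7 fell. *TAF7*, which lies between the beta and gamma clusters, did not pass in the knockdown clones (0.41 log2, SE 0.22, limma adjusted p = 0.28) and rose by 0.80 log2 in the control clones (0.0271). Of the 16 probes for cytoplasmic partners of protocadherins, 0 passed in the knockdown clones, and 3 rose and 3 fell in the control clones.

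Markers of other cell types moved with treatment as well. Of 4 tested mesenchymal probes, 3 (*VIM* and 2 of *CDH2*) rose in the knockdown clones and 4 in the control clones. Their summed scaled signal, over 5 probes, was 490 to 683 untreated and 8051 to 11277 treated in the knockdown clones, and 629 to 779 and 25639 to 48663 in the control clones. All such sums add linear signals, so the brightest probes dominate them. *VIM* made up most of the treated sums here, at 12.79 and 13.37 log2 in the knockdown and 14.59 and 15.54 log2 in the control clones. Of 8 tested neuronal probes, 1 (*RBFOX3*) rose and 0 fell in the knockdown clones, and 3 rose and 1 fell in the control clones. The probe that fell was another *RBFOX3* probe, by 0.90 log2 in the control clones (limma adjusted p = 0.0405) with a difference of -0.07 log2 in the knockdown clones (0.904). *ELAVL4* and *SYP* were above background on no array. The sum over 13 neuronal probes was 10013 to 15007 and 13781 to 29413 in the knockdown, and 18012 to 20875 and 51126 to 56190 in the control clones. The sum of 10 epithelial probes was 353623 to 387626 and 428431 to 445041 in the knockdown, and 363429 to 375977 and 355201 to 382337 in the control clones. The part of these genes in the protocadherin results was not tested, and fewer cells of a kind and less RNA per cell cannot be told apart in such bulk samples.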

How the data were processed

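Total RNA from 4 HCT116 clones was hybridized to one-color Agilent arrays annotated on hg19. The authors deposited spot intensity values (the processed signal of Feature Extraction 10.7), with background subtracted and no scaling between arrays. The deposited value table held the same intensity values rounded, within 0.497%. Flagged spots were dropped and saturated ones kept. Signals were scaled to each array's 75th percentile, floored at 1, put on the log2 scale and averaged per probe. Tests used limma 3.58.1 in R 4.3.3, in 1 fit over 8 arrays, with Benjamini-Hochberg adjustment over 27286 probes at 0.05. P-values measure the spread between clones. Samples with the same number were the same clone by the labels, and their deviations correlated at r = 0.198 (control) and 0.476 (knockdown). The fit was tested on simulated data. Members, gene lists and tests were chosen with earlier results of these data known. Named members were the strongest called rises and falls per cluster, the best detected probes, C-type genes and *PCDHB1*, and calls between kinds of clone; a few others with partial detection were added after their values were seen. Alternatives covered normalization, background, filters, GC content, offsets, array sets and the clone block. A further marker list is not reported here. Precision was limited by the number of arrays. No genome of the files' build was used here, so exon and untranslated positions of probes are not given.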

Additional observations from a re-analysis of the deposited data

Results flagged for a closer look

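For *PCDHB16*, the fitted knockdown response minus the control response was -3.36 log2 (limma adjusted p = 0.0413). Since 6 of the 8 arrays were not well above background and the probe was admitted by the treated control arrays alone, this is no measured size, and the call was lost in 13 of 19 alternatives. For 3 probes, the fitted responses were below 0 in both control clones and above 0 in both knockdown clones, and none passed the test of the difference. The *PCDHGA7* probe at chr5:140764880-140764939, above background on all 8 arrays, had a difference in response of 1.66 log2 (limma adjusted p = 0.0767), with responses of 0.26 log2 in TET1-KD1 and 0.0062 log2 in TET1-KD2. For *PCDHAC2* (fitted 2.34 log2, limma adjusted p = 0.138) and the other *PCDHGA7* probe, at chr5:140764098-140764157 (fitted 1.41 log2, limma adjusted p = 0.0781), most arrays were not well above background, and these fitted values are no measured sizes either. For all 4, slide and condition cannot be told apart.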

How the results depend on the processing

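Over the 20 alternatives tried for the knockdown rises, *PCDHGB4* kept its call in 18, each *PCDHB2* probe in 17 and *PCDHGA3* in 15, with no change of direction. The count of members up in the knockdown clones was 4 as reported and 2 with an offset of 50 before the log2. Among probes above background on all 8 arrays it was 0. By the t-test of the methods it was 0 after adjustment. Unadjusted, that t-test gave 6 up and 1 down, against 8.84% and 7.65% of all probes. The count was 6 with the clone as a block. Leaving out 1 array at a time gave 2 to 5. In the control clones, 10 rose as reported, against 16 without the filter on dim probes, 2 among probes above background on all arrays and 0 by the methods' t-test, and leaving out arrays gave 7 to 11. In the untreated comparison the methods' t-test gave 1 member higher and 0 lower unadjusted, against 3.14% and 3.21% of all probes. The 5 falls became 3 without the filter, 2 with normexp, 2 among probes above background on all arrays, 3 with the 4 control arrays alone and 1 by the methods' t-test, and 1 to 5 on leaving out arrays. *PCDHGA7* at chr5:140764098-140764157 changed sign with normexp in the control clones (0.14 log2). For the difference in response, 1 member was lower as reported. It was 0 under the replicate block, without the filter, with normexp, with the offset, among probes above background on all arrays, with the probe GC trend removed, and with block and GC removal together, and 0 to 1 on leaving out arrays. Members higher numbered 0 as reported, 1 with the replicate block (*PCDHGA7*) and 0 to 2 on leaving out arrays (*PCDHA7* and *PCDHGA7* without treated CONT1). The block changed no other call except those of *PCDHB11* and *PCDHGA2* in the knockdown clones and that of the alpha probe beyond the C-type genes, which rose in the control clones. The cause of these changes was not tested. Most members were not well above background, and for these the arrays give only bounds.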
